A study of Homo sapiens with 4 samples.

Results

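The genes described here are 49 genes of DNA replication and its E2F control, picked by their symbols from a table of 25133 genes with a symbol. They cover 10 steps: E2F factors and pocket proteins, cyclin E and CDK2, origin licensing, the replicative helicase, the sliding clamp and its loader, single-strand binding, DNA polymerases, flap removal and ligation, nucleotide supply and chromatin assembly. RNA was sequenced from the human breast cancer line MDA-MB-231. The knockdown libraries came from cells infected with a lentivirus carrying a short hairpin against JARID2 (shJARID2, n = 2, genotype given as JARID2 knockdown). The control libraries came from the same line infected with a scrambled hairpin (shSCR, n = 2, genotype given as WT). JARID2 encodes a DNA-binding partner of Polycomb repressive complex PRC2, and the comparison asked which transcripts differed once it was depleted. The labels give neither the hairpin sequence, nor how many hairpins were used, nor the time of harvest, nor whether the cells were selected after infection.

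A cell may copy its DNA once in each division. In G1 phase the origin recognition complex, CDC6 and CDT1 load the MCM helicase onto origins, a step called licensing, and geminin (GMNN) later blocks CDT1. Cyclin E with CDK2 and the DBF4-dependent kinase then switch the helicase on with CDC45 and GINS, and polymerases, clamp, ligase and nucleotide-making enzymes do the synthesis. E2F1, E2F2 and E2F3 switch on many of these genes, the pocket proteins RB1 and RBL1 (p107) hold E2F factors back, and E2F7 and E2F8 are E2F factors that repress.

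JARID2 transcript was at 3.88 and 3.91 FPKM in the shJARID2 libraries, against 10.8 and 10.8 FPKM in the shSCR libraries, so the labels matched the targeted gene (log2 fold change -1.27, adjusted p = 0.0014, limma with Benjamini-Hochberg adjustment, and -1.15 after the GC correction described later). FPKM give the fragments counted for a gene relative to its length and to the total of the library. The steps between low values gave about 13000000 and 12800000 counted reads in shJARID2 replicates 1 and 2, and 15500000 and 16200000 in shSCR replicates 1 and 2. Of 5 genes taken as markers of this mesenchymal-like line, CD44, AXL, CAV1 and MSN were at 68.9 FPKM or more in every library. The fifth, vimentin (VIM), which goes with that state, was at 2.10 and 2.77 FPKM in shJARID2 and 3.54 and 4.20 FPKM in shSCR, with exons of other genes over 24.4% of its own. ESR1, PGR, CDH1, KRT5 and GATA3, expected low, were under 0.5 FPKM in every library, and ERBB2 was at 6.58 and 7.57 FPKM in shJARID2 and 15.5 and 15.7 FPKM in shSCR.

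The promoters of these genes were also read for the E2F recognition sequence near the start of transcription. The genes were picked by name as genes of replication and its E2F control, so a high share of this sequence is no independent finding. RefSeq promoter windows of 300 bases (GRCh38.p14), running from 250 bases before the annotated start to 50 bases after it, were at hand for 41 of the 49 genes. E2F8, CCNE2, CDK2, MCM4, MCM5, GINS4, RPA2 and RPA3 had none. The windows of RB1 and GINS3 lie at starts far inside the gene, and that of GINS3 holds an E2F word. Some others, such as those of RFC5, RRM2 and GINS2, lie less far inside. An E2F word (TTTCCCGC, TTTCGCGC, TTTGCCGC or TTTGGCGC, searched on both strands) stood in 20 of the 41 windows (48.8%), against 5.84% of 8732 windows of all genes tested and 3.33% of all 27305 windows. The NF-Y word CCAAT, a common promoter element, stood in 22 of the 41 (53.7%), against 37.2% of windows of genes tested. The CHR words TTTGAA and TTCGAA, typical of mitotic genes, stood in 3 of the 41 (7.32%), against 11.5%. Words of different kinds were counted even where they share bases. Near forms of the E2F words, such as TTTGGCGGG in the windows of CDC45, MCM10 and CDT1, were not counted. A window without an E2F word may therefore still hold a near form. A match is a description of these letters and not a binding site.

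The windows of 6 genes are printed below, 5′ to 3′ on the strand of the gene, because they show that genes with the same E2F word went both ways. Capitals mark the E2F words, and positions count from 0 at the annotated start. E2F1 (chr20:33686336-33686635, minus strand) has words at positions -33 and -20, TYMS (chr18:657403-657702, plus strand) at -39, CDT1 (chr16:88803539-88803838, plus strand) at -35, PCNA (chr20:5126573-5126872, minus strand) at -59, GINS1 (chr20:25407423-25407722, plus strand) at 5 and MCM7 (chr7:100101348-100101647, minus strand) at -187 and -9.
E2F1: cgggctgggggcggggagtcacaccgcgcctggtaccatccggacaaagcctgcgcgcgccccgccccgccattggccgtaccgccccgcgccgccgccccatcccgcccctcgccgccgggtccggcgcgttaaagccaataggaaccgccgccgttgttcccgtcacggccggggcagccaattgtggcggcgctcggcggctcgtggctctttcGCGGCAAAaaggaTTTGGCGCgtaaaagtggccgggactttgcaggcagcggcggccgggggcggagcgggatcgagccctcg
TYMS: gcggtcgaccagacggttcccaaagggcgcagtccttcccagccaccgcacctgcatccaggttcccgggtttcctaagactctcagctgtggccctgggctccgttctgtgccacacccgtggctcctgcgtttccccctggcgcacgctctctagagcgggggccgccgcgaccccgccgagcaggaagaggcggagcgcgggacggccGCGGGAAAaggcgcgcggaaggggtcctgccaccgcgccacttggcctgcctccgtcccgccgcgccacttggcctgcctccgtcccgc
CDT1: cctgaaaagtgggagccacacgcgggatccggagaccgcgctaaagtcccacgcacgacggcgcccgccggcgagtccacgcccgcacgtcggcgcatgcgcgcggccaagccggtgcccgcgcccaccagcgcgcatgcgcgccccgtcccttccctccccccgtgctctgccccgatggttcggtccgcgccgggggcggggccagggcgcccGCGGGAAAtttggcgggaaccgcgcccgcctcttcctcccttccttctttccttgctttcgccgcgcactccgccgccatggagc
PCNA: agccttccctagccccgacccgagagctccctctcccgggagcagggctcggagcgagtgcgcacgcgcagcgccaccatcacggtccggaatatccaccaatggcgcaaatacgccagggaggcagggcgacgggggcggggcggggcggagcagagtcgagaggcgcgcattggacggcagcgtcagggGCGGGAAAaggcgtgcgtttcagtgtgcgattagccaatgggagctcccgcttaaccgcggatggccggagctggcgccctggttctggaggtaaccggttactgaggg
GINS1: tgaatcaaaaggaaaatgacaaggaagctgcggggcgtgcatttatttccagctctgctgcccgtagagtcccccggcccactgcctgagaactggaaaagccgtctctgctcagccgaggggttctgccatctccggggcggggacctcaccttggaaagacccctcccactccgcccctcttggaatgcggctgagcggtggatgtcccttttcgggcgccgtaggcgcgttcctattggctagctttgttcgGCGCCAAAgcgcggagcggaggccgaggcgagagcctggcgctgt
MCM7: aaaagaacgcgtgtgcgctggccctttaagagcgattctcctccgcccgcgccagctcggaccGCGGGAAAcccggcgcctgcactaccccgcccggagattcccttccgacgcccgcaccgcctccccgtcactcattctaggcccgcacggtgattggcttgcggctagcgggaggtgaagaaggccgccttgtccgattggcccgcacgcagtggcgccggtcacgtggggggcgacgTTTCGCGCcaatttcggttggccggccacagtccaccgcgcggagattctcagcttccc
TYMS, CDT1 and PCNA carry the identical word GCGGGAAA, and the first 2 of these genes fell while PCNA rose, as described further on.

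The 49 genes did not move as a block. All passed the filter of a mean of 1 FPKM and were tested on log2(FPKM + 1) with limma together with the 12455 genes that did. At an adjusted p below 0.05, 19 of the 49 genes (38.8%) rose and 21 (42.9%) fell in shJARID2 cells. Over all genes tested the shares were 28.0% higher and 31.6% lower, 59.7% in either direction, so most expressed genes were called in this comparison. The median level of the 49 genes was 18.8 FPKM, against 6.64 FPKM over all genes tested, and the part of level in these shares was not tested. Both libraries of shJARID2 lay above both of shSCR for 20 of the genes and below for 25, against 39.8% and 43.1% of all genes tested. The median log2 fold change of the 49 was -0.14, against -0.018 over all genes. Changes of 2-fold or more on the fitted scale were seen for 5 genes, RPA3 and PCNA upward and TYMS, CDT1 and POLD1 downward, and for 9.98% of all genes. Whether the replicates were grown as separate cultures is not in the labels, so each p-value covers only the spread among these 4 libraries. In bulk RNA, fewer cells in S phase and less RNA per cell cannot be told apart.

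**Figure D1:**
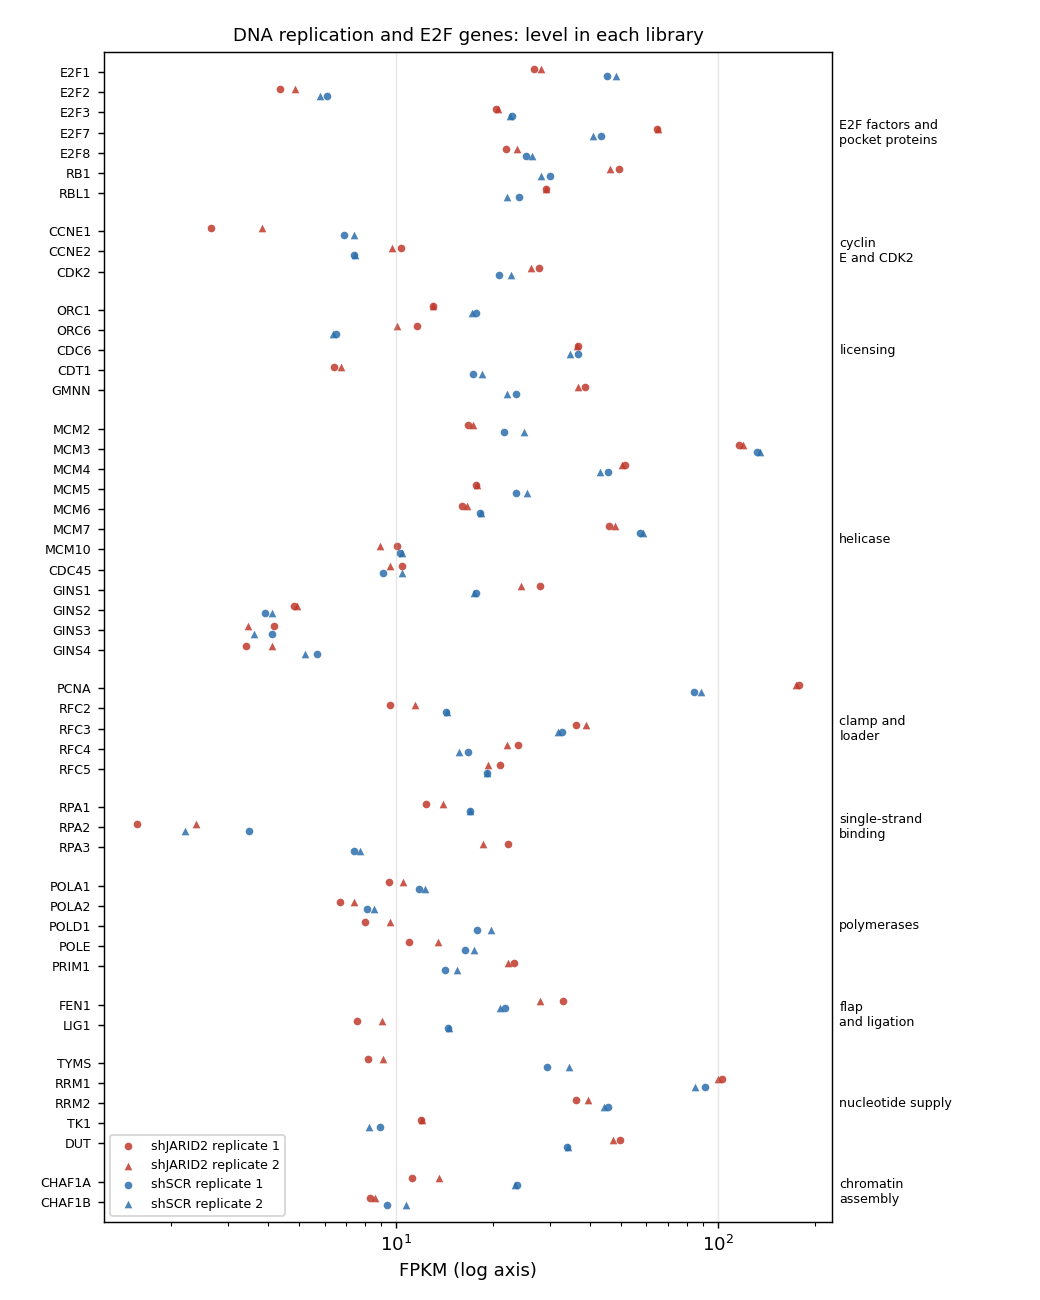
Level of each gene in each library, in FPKM on a log axis, with red for shJARID2, blue for shSCR, circles for replicate 1 and triangles for replicate 2. Genes are grouped by step. PCNA has 179 and 175 FPKM in shJARID2 and lies to the right of its shSCR points at 84.6 and 88.5 FPKM, while TYMS has 8.19 and 9.14 FPKM in shJARID2 and lies far to the left of its shSCR points at 29.5 and 34.5 FPKM.

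Changes followed the GC content of transcripts, and this bears on nearly every gene here. Across the 49 genes Spearman's rho between log2 fold change and GC content was -0.65 (Pearson's r -0.62), and across 12065 genes tested with a GC value rho was -0.67. Genes are not independent replicates and share the same 4 libraries. Of the 16 genes with the lowest GC content (38.7% to 45.4%), 11 rose and 4 fell. Of the 17 with the highest (51.6% to 65.3%), 3 rose and 13 fell. Replicates of one condition differed along GC content too, with rho 0.30 in shJARID2 and 0.29 in shSCR. The cause of the trend was not tested. Changes are therefore given beside values from a second fit in which a smooth of GC content was taken off each library. In that fit 16 of the 49 genes (32.7%) were higher and 12 (24.5%) lower, against 22.7% and 21.5% of all genes (44.2% in either direction), and the median was -0.043.

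**Figure D2:**
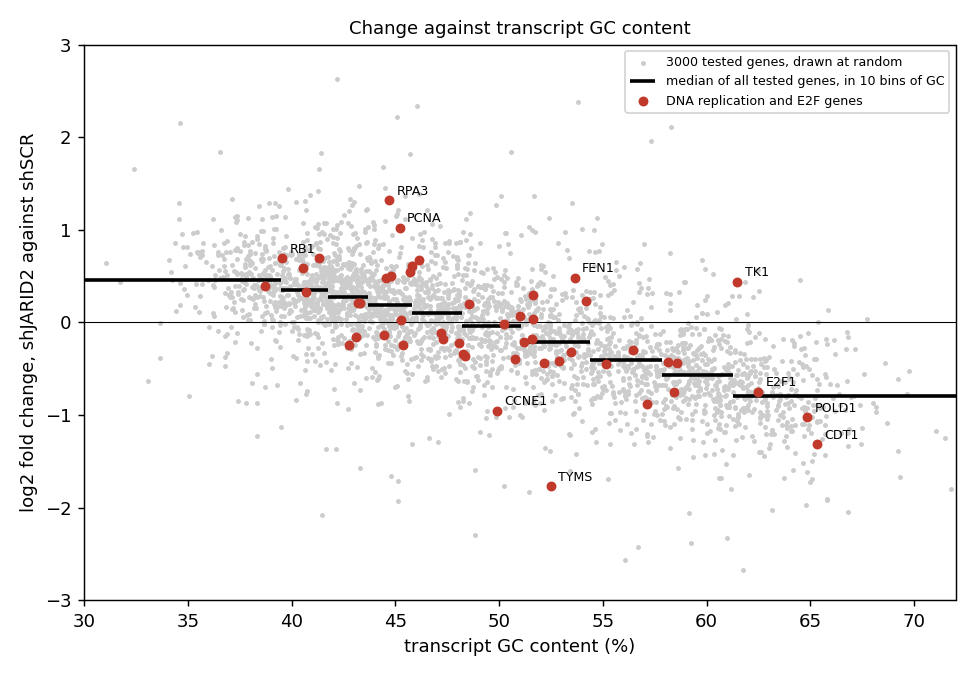
Log2 fold change of shJARID2 against shSCR (vertical axis) against transcript GC content in percent (horizontal axis). Red points are the 49 genes, grey points a random sample of tested genes within the axis limits, and black bars the median of all tested genes in each of 10 equal bins of GC content. The black bars run from 0.46 in the lowest bin down to -0.79 in the highest, E2F1 lies close to the bar of its bin, and TYMS, CCNE1, PCNA, RPA3 and TK1 lie away from theirs.

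In both fits 15 genes were higher (15.9% of all genes were) and 10 were lower (15.5% of all genes). The 15 were E2F7, RB1, CDK2, ORC6, GMNN, MCM4, GINS1, GINS2, PCNA, RFC4, RPA3, PRIM1, FEN1, TK1 and DUT. The 10 were E2F3, CCNE1, ORC1, CDT1, MCM6, RPA1, POLA1, TYMS, RRM2 and CHAF1A. A further 14 calls were lost with the correction, 2 genes (E2F8 and CDC6) were called lower after it alone, and MCM7 was called lower as measured and higher after correction. Calls of opposite direction in the 2 fits were seen for 2.08% of all genes. Of the 19 rises, 13 were kept whichever single library was left out, and of the 21 falls, 10. Of these, 11 rises and 4 falls were also called after GC correction. No share of kept calls over all genes is given for comparison. Calls over all genes also became fewer whichever single library was left out. With no filter on low values, 13 genes rose and 11 fell as measured. The 16 calls that ended were those of E2F2, CDK2, MCM2, MCM3, MCM4, MCM6, GINS2, GINS4, RFC2, RFC3, RPA1, POLA1, POLE, FEN1, RRM1 and RRM2. Calls over all genes became fewer too, with 2808 higher and 3372 lower among 25133 genes. With the filter they were 3493 and 3941 among 12455.

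**Figure D3:**
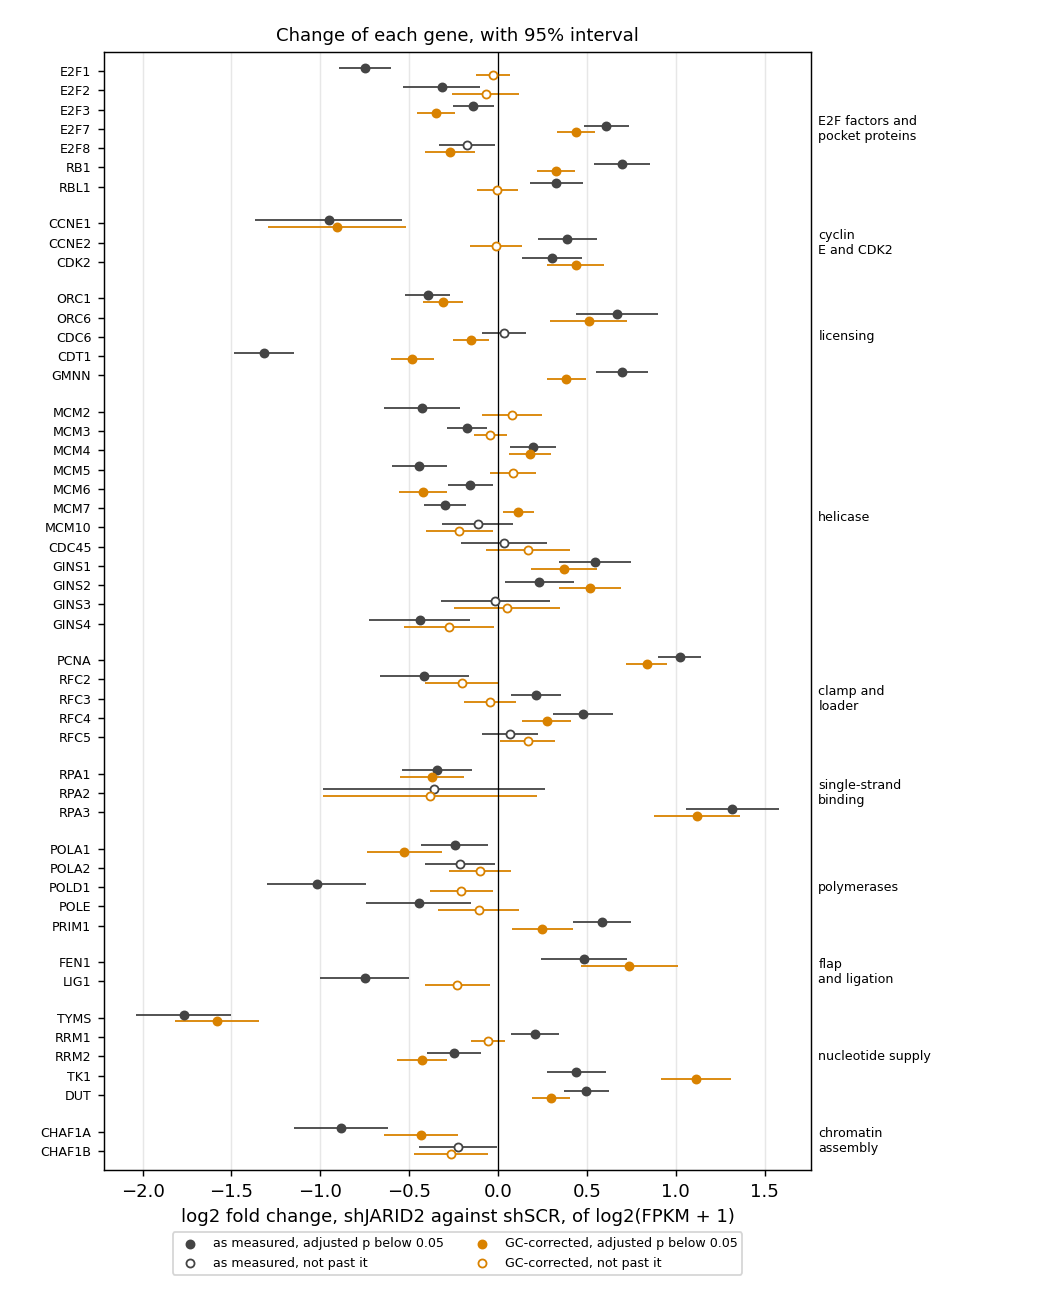
Log2 fold change of each gene in shJARID2 against shSCR with its 95% interval from limma, as measured (dark) and after GC correction (orange). Filled points passed an adjusted p of 0.05 and open points did not. E2F1 moves from -0.75 as measured to -0.028 after correction, whereas TYMS stays at -1.58 and RPA3 at 1.12.

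Among the E2F factors, the activators E2F1, E2F2 and E2F3 fell as measured and the repressor E2F7 rose, and the calls of E2F1 and E2F2 were lost after GC correction. E2F1 was at 26.8 and 28.1 FPKM in shJARID2, against 45.4 and 48.4 FPKM in shSCR, with no overlap. Its log2 fold change was -0.75 (95% interval -0.90 to -0.60, adjusted p = 0.0015, limma), and the GC-corrected value was -0.028 (-0.12 to 0.067, adjusted p = 0.56, limma). E2F1 transcripts have a GC content of 62.5%, and in the highest of 10 equal bins of GC content the median change of all genes was -0.79. E2F2 was at 4.36 and 4.85 FPKM in shJARID2, against 6.12 and 5.82 FPKM in shSCR (-0.32, GC-corrected -0.071). E2F3, whose transcripts are poorer in GC at 44.4%, was at 20.4 and 20.8 FPKM in shJARID2, against 22.9 and 22.7 FPKM in shSCR. Its small fall of 0.14 on the log2 scale passed the test narrowly (adjusted p = 0.047, limma), and it was -0.35 after GC correction. Over 17 alternative settings E2F3 was called lower in 6, among them the GC corrections, and other scalings of the libraries were among those that ended the call. It has 2 annotated pseudogene copies. Without 1 library the call of E2F3 as measured ended whichever library it was (adjusted p up to 0.19, limma), and that of E2F2 ended without shSCR replicate 1, shSCR replicate 2 or shJARID2 replicate 1 (up to 0.14).

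E2F7 was the E2F gene with the highest level in the knockdown. E2F7 was at 64.6 and 65.3 FPKM in shJARID2, against 43.5 and 41.0 FPKM in shSCR, a rise in both fits (0.61, adjusted p = 0.0016, and GC-corrected 0.44, limma). Its partner E2F8 was at 22.0 and 23.7 FPKM in shJARID2, against 25.4 and 26.5 FPKM in shSCR, which did not pass as measured (-0.18, interval -0.33 to -0.019, adjusted p = 0.057) and was lower after GC correction (-0.27, adjusted p = 0.018, limma). The 2 repressors thus had changes of opposite sign. Within a library, E2F7 FPKM divided by E2F1 FPKM was 2.41 and 2.32 in shJARID2 and 0.958 and 0.848 in shSCR. In order of mean FPKM among the 49 genes, E2F1 ranked 15 in shJARID2 and 5 in shSCR, and E2F7 ranked 4 in shJARID2 and 8 in shSCR. This ratio and these ranks are as measured. GC content is 45.8% for E2F7 and 62.5% for E2F1, and the GC-corrected change of E2F1 was -0.028.

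The pocket protein genes RB1 and RBL1 were higher as measured. RB1, the retinoblastoma gene, was at 49.4 and 46.3 FPKM in shJARID2, against 30.1 and 28.2 FPKM in shSCR (0.70, adjusted p = 0.0018, limma), and the rise remained after GC correction at 0.33. RBL1 was at 29.2 and 29.3 FPKM in shJARID2, against 24.0 and 22.2 FPKM in shSCR (0.33), but its GC-corrected value was -0.0042 (interval -0.12 to 0.11) and did not pass. RBL2, the pocket protein gene of the longer list, was at 2.26 and 1.80 FPKM in shJARID2 and 1.99 and 1.82 FPKM in shSCR and passed in neither fit (0.056, interval -0.28 to 0.39, GC-corrected -0.25). The RBL2 groups overlapped. The GC content of 39.5% for RB1 and 40.7% for RBL1 lies where the median of all genes was also above 0, at 0.35 or more.

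The cyclin E genes moved apart. CCNE1, which encodes cyclin E1, was at 2.66 and 3.83 FPKM in shJARID2, against 6.91 and 7.39 FPKM in shSCR. This fall was nearly the same in both fits (-0.95, adjusted p = 0.0075, and GC-corrected -0.91, adjusted p = 0.011, limma), with 88 and 125 reads in shJARID2 and 273 and 305 in shSCR. Without shSCR replicate 2 it missed the threshold (-0.91, adjusted p = 0.051). CCNE2, for cyclin E2, was at 10.4 and 9.72 FPKM in shJARID2, against 7.38 and 7.46 FPKM in shSCR (0.39), which the GC correction took to -0.012 and off the call. The CCNE2 to CCNE1 ratio, as measured and without GC correction, was 3.89 and 2.54 in shJARID2 and 1.07 and 1.01 in shSCR. CDK2, the kinase that both cyclins bind, was at 27.8 and 26.3 FPKM in shJARID2, against 20.8 and 22.7 FPKM in shSCR, and rose in both fits (0.30 and GC-corrected 0.44). Its call as measured ended without shSCR replicate 1 or shJARID2 replicate 1 (adjusted p up to 0.072, limma). Other genes' exons overlap 37.1% of the exon bases of CCNE2 and 16.8% of those of CDK2, and it is not stated whether counting used strand, so their values are uncertain.

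In licensing, 2 genes rose and 2 fell as measured, and the loader CDT1 and its inhibitor geminin went opposite ways in both fits. CDT1, which brings the MCM helicase to origins, was at 6.41 and 6.77 FPKM in shJARID2, against 17.3 and 18.5 FPKM in shSCR, a ratio of means of 0.368. Its log2 fold change was -1.32 (adjusted p = 0.0014, limma), and after GC correction it was -0.48 (adjusted p = 0.0031, limma). CDT1 has the highest GC content of the 49 genes, 65.3%. GMNN, the inhibitor of CDT1 protein, was at 38.6 and 36.8 FPKM in shJARID2, against 23.6 and 22.2 FPKM in shSCR (0.70, GC-corrected 0.38, both called). The ratio of GMNN to CDT1 FPKM, as measured and without GC correction, was 6.03 and 5.44 in shJARID2 and 1.36 and 1.20 in shSCR.

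The genes of the origin recognition complex split. ORC1, the subunit made and removed with the cell cycle, was at 13.0 and 13.1 FPKM in shJARID2, against 17.7 and 17.2 FPKM in shSCR (-0.40, GC-corrected -0.31). ORC6 was at 11.6 and 10.1 FPKM in shJARID2, against 6.51 and 6.37 FPKM in shSCR (0.67, GC-corrected 0.51). The other subunits, which belong to a longer list of replication genes described at the end, rose too: ORC2 by 0.66, ORC3 by 0.68, ORC4 by 0.86 and ORC5 by 0.51, and after GC correction all 4 were still called. ORC1 was thus the single subunit of 6 that was lower, in both fits. CDC6, the loading ATPase, was at 36.7 and 36.4 FPKM in shJARID2, against 36.7 and 34.8 FPKM in shSCR, with overlapping groups (0.031, interval -0.093 to 0.16), and was called lower after GC correction (-0.15, adjusted p = 0.032, limma).

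In the helicase step the MCM ring genes were mostly lower as measured, by small amounts. Of the 6 ring genes 5 fell and 1 rose, and after GC correction 1 was lower and 2 higher. MCM3 had the highest level of all 49 genes in shSCR. MCM3 was at 116 and 120 FPKM in shJARID2, against 132 and 135 FPKM in shSCR (-0.18, GC-corrected -0.043 and not called). MCM5 was at 17.7 and 17.9 FPKM in shJARID2, against 23.6 and 25.6 FPKM in shSCR (-0.44), and MCM2 at 16.7 and 17.4 FPKM in shJARID2, against 21.7 and 25.0 FPKM in shSCR (-0.43). After GC correction MCM5 was at 0.086 and MCM2 at 0.079, neither called. MCM7 was at 46.0 and 47.9 FPKM in shJARID2, against 57.4 and 58.6 FPKM in shSCR (-0.30, adjusted p = 0.0058), and turned to 0.11 after GC correction (adjusted p = 0.047, limma). MCM6, at 16.1 and 16.7 FPKM in shJARID2 and 18.3 and 18.4 FPKM in shSCR, was lower in both fits (-0.16, GC-corrected -0.42), but was called in 6 of 17 alternative settings, the GC corrections among them. MCM4 was the ring gene that was higher in both, at 51.4 and 50.2 FPKM in shJARID2 and 45.5 and 43.0 FPKM in shSCR (0.19, GC-corrected 0.18).

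These ring genes are subunits of a complex with 1 copy of each, yet their FPKM differed widely in every library. The ratio of MCM3 to MCM6 was 7.24 and 7.20 in shJARID2 and 7.23 and 7.34 in shSCR, so as measured this gap was as large without the knockdown. The ratio is without GC correction, after which the change was -0.043 for MCM3 and -0.42 for MCM6. Leaving out any 1 library ended the calls as measured of MCM4 and MCM6 (adjusted p up to 0.13 and 0.19, limma), and leaving out shSCR replicate 1, shSCR replicate 2 or shJARID2 replicate 1 ended that of MCM3 (up to 0.13). Other genes' exons overlap 23.6% of the exon bases of MCM2.

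The GINS genes, whose products join the ring with CDC45, also differed among themselves. GINS1 was at 27.9 and 24.5 FPKM in shJARID2, against 17.8 and 17.4 FPKM in shSCR, and rose in both fits (0.55, GC-corrected 0.37). GINS2 was at 4.83 and 4.93 FPKM in shJARID2, against 3.91 and 4.11 FPKM in shSCR (0.23, adjusted p = 0.049, and GC-corrected 0.52, adjusted p = 0.0059, limma). GINS4 was at 3.41 and 4.11 FPKM in shJARID2, against 5.69 and 5.21 FPKM in shSCR (-0.44), a fall not called after GC correction (-0.28). GINS3 overlapped between groups, at 4.19 and 3.47 FPKM in shJARID2 and 4.12 and 3.63 FPKM in shSCR (-0.015, interval -0.32 to 0.29, GC-corrected 0.050). CDC45 (0.032, interval -0.21 to 0.27, GC-corrected 0.17) and the loading factor gene MCM10 (-0.11, interval -0.31 to 0.085, GC-corrected -0.22) passed in neither fit. Leaving out any 1 library ended the call of GINS2 as measured (adjusted p up to 0.21, limma, with 8 of 17 alternative settings calling it), and leaving out shSCR replicate 1, shSCR replicate 2 or shJARID2 replicate 1 ended that of GINS4 (up to 0.12). Other genes' exons overlap 23.6% of the exon bases of GINS4 and 10.9% of those of GINS3.

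PCNA, the sliding clamp that holds polymerases on DNA, showed the largest rise after RPA3 as measured, and after GC correction it came behind RPA3 and TK1. PCNA was at 179 and 175 FPKM in shJARID2, against 84.6 and 88.5 FPKM in shSCR, a ratio of means of 2.04. Its log2 fold change was 1.02 (interval 0.90 to 1.14, adjusted p = 0.0014) and its GC-corrected value 0.84 (adjusted p = 0.0017, limma). It had the highest FPKM of the 49 genes in shJARID2 and ranked 3 in shSCR. PCNA has 3 annotated pseudogene copies, and how multiply matching reads were counted is not stated.

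The genes of replication factor C, which loads the clamp, did not follow it as a group. RFC4 was at 23.9 and 22.1 FPKM in shJARID2, against 16.7 and 15.7 FPKM in shSCR, higher in both fits (0.48, GC-corrected 0.27). RFC3 was at 36.4 and 38.9 FPKM in shJARID2, against 32.9 and 31.8 FPKM in shSCR (0.21), with -0.047 after GC correction. RFC2 was at 9.60 and 11.5 FPKM in shJARID2, against 14.3 and 14.4 FPKM in shSCR (-0.41), with -0.20 after correction, and neither RFC2 nor RFC3 was then called. RFC5, at 21.0 and 19.3 FPKM in shJARID2 and 19.2 and 19.1 FPKM in shSCR, passed in neither fit (0.067, interval -0.092 to 0.23, GC-corrected 0.17). The call of RFC2 as measured ended without shSCR replicate 1 or 2 (adjusted p up to 0.091, limma), and that of RFC3 without shSCR replicate 1, shSCR replicate 2 or shJARID2 replicate 2 (up to 0.13). The large subunit RFC1, from the longer list, was lower in both fits (-0.39, GC-corrected -0.70).

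Of the 3 genes of RPA, the complex that coats single-stranded DNA, RPA3 rose and RPA1 fell in both fits. RPA3, the small subunit, was at 22.2 and 18.6 FPKM in shJARID2, against 7.41 and 7.72 FPKM in shSCR, a ratio of means of 2.70 and the largest rise of the 49 genes (1.32, adjusted p = 0.0015, and GC-corrected 1.12, limma). It stood on 931 and 770 reads in shJARID2 and 371 and 404 in shSCR. RPA1, the large subunit, was at 12.4 and 14.0 FPKM in shJARID2, against 17.0 and 16.9 FPKM in shSCR, a fall in both fits (-0.34, GC-corrected -0.37). Its call as measured ended without shSCR replicate 1 or 2 (adjusted p up to 0.082, limma). The RPA3 to RPA1 ratio was 1.80 and 1.33 in shJARID2 and 0.435 and 0.456 in shSCR. RPA2 was counted low in all libraries, at 1.57 and 2.40 FPKM (41 and 62 reads) in shJARID2 and 3.48 and 2.20 FPKM (109 and 72 reads) in shSCR. Its groups overlapped (-0.36, interval -0.98 to 0.26, GC-corrected -0.38), it has 3 annotated pseudogene copies, and no difference was detectable at this depth.

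Among polymerase genes the catalytic subunits were lower as measured and the primase subunit PRIM1 was higher. POLD1, the catalytic subunit of polymerase delta, was at 8.02 and 9.58 FPKM in shJARID2, against 17.9 and 19.8 FPKM in shSCR (-1.02, adjusted p = 0.0024, limma). Its GC content is 64.8%, and after correction the value was -0.21 (interval -0.38 to -0.031, adjusted p = 0.063). POLE, the catalytic subunit of polymerase epsilon, was at 11.0 and 13.5 FPKM in shJARID2, against 16.3 and 17.5 FPKM in shSCR (-0.45, GC-corrected -0.11 and not called). POLA1, the catalytic subunit of polymerase alpha, was at 9.51 and 10.5 FPKM in shJARID2, against 11.8 and 12.3 FPKM in shSCR, and was lower in both fits (-0.24, GC-corrected -0.53). PRIM1, which makes the RNA primer, was at 23.2 and 22.3 FPKM in shJARID2, against 14.2 and 15.5 FPKM in shSCR, higher in both fits (0.58, GC-corrected 0.25), with exons of other genes over 21.6% of its own. POLA2, the second subunit of polymerase alpha, was at 6.69 and 7.38 FPKM in shJARID2 and 8.10 and 8.51 FPKM in shSCR and passed in neither fit (-0.21, interval -0.41 to -0.016, adjusted p = 0.063, GC-corrected -0.10, limma), with exons of other genes over 35.1% of its own. The calls as measured ended without shSCR replicate 1 or 2 for POLE (adjusted p up to 0.12, limma), and without either of these or shJARID2 replicate 1 for POLA1 (up to 0.17).

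The genes that finish the lagging strand also differed. FEN1, the flap nuclease, was at 33.0 and 28.0 FPKM in shJARID2, against 21.9 and 21.1 FPKM in shSCR (0.48, GC-corrected 0.74). LIG1, the ligase, was at 7.54 and 9.01 FPKM in shJARID2, against 14.6 and 14.6 FPKM in shSCR (-0.75, adjusted p = 0.0037, limma), and after GC correction at -0.23 (adjusted p = 0.055), which did not pass. FEN1 missed the threshold without shSCR replicate 2 (0.46, adjusted p = 0.065).

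Thymidylate supply showed the largest single fall and a rise beside it. TYMS, thymidylate synthase, the enzyme that makes dTMP from dUMP, was at 8.19 and 9.14 FPKM in shJARID2, against 29.5 and 34.5 FPKM in shSCR, a ratio of means of 0.271. Its log2 fold change was -1.77 (interval -2.04 to -1.50, adjusted p = 0.0014) and -1.58 after GC correction (adjusted p = 0.0018, limma). It stood on 262 and 289 reads in shJARID2 and 1129 and 1380 in shSCR. Other genes' exons overlap 46.6% of its exon bases, and 2 pseudogene copies are annotated, so its counts are uncertain. TK1, thymidine kinase, which makes the same nucleotide from thymidine, was at 12.0 and 12.0 FPKM in shJARID2, against 8.95 and 8.27 FPKM in shSCR (0.44, adjusted p = 0.0052, limma). With a GC content of 61.5% its GC-corrected value was larger, 1.11 (adjusted p = 0.0020). The TK1 to TYMS ratio was 1.46 and 1.32 in shJARID2 and 0.303 and 0.239 in shSCR.

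Of the other nucleotide genes, DUT rose and RRM2 fell in both fits. DUT, which turns dUTP into dUMP, was at 49.7 and 47.1 FPKM in shJARID2, against 33.9 and 34.1 FPKM in shSCR (0.50, GC-corrected 0.30), but with 8 annotated pseudogene copies this call is uncertain. RRM2, the regulatory subunit of ribonucleotide reductase, was at 36.3 and 39.4 FPKM in shJARID2, against 45.7 and 44.3 FPKM in shSCR (-0.25, GC-corrected -0.43). RRM2 has 3 annotated pseudogene copies and shares 20.2% of its exon bases with other genes, so its call is uncertain too. RRM1, its large subunit, was at 103 and 100.5 FPKM in shJARID2, against 91.0 and 85.2 FPKM in shSCR (0.21), and lost its call after correction (-0.057). The RRM1 to RRM2 ratio was 2.85 and 2.55 in shJARID2 and 1.99 and 1.92 in shSCR. Calls as measured ended for RRM1 without shSCR replicate 2 or either shJARID2 library (adjusted p up to 0.12, limma), and for RRM2 without either shSCR library or shJARID2 replicate 1 (up to 0.10).

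Chromatin assembly factor, which places histones behind the fork, was lower in its large subunit. CHAF1A was at 11.2 and 13.6 FPKM in shJARID2, against 23.8 and 23.5 FPKM in shSCR, and fell in both fits (-0.88, adjusted p = 0.0030, and GC-corrected -0.43, adjusted p = 0.014, limma). CHAF1B, the middle subunit, was at 8.28 and 8.62 FPKM in shJARID2 and 9.38 and 10.8 FPKM in shSCR and missed the threshold in both (-0.22, adjusted p = 0.074, and GC-corrected -0.26, adjusted p = 0.052, limma).

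Summed over the genes of a step, the clamp and loader genes gave 270 and 267 FPKM in shJARID2 and 168 and 170 FPKM in shSCR, most of it PCNA. The helicase genes gave 325 and 326 FPKM in shJARID2 and 350 and 357 FPKM in shSCR. The nucleotide supply genes gave 209 and 208 FPKM in shJARID2 and 209 and 206 FPKM in shSCR. These sums are descriptions on the FPKM scale and have no test.

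A longer list of 63 other genes of the same pathway was read beside the 49. Of these, 60 passed the filter (LIN37, POLD4 and POLE3 did not). As measured 28 rose and 18 fell (44.4% and 28.6% of the 63), and after GC correction 20 and 14 did (31.7% and 22.2%). The 3 genes not tested are part of this base, so shares of the 60 tested would be slightly higher. Over all genes tested, 28.0% were higher and 31.6% lower as measured, and 22.7% and 21.5% after correction, so the falls lay near these shares. The rises lay above them. The median GC content of the list was 43.7%, against 48.2% over all genes tested, and its part in the rises was not tested. The median log2 fold change was 0.17 as measured and 0.041 after correction. The 5 largest rises were those of PCLAF, the PCNA-associated factor (1.66, GC-corrected 1.34), DCK, deoxycytidine kinase (1.33, GC-corrected 0.88), the histone chaperone gene ASF1A (0.90, GC-corrected 0.53), ORC4 (0.86, GC-corrected 0.44) and POLE4, a small polymerase epsilon subunit (0.73, GC-corrected 0.74). PCLAF was at 21.8 and 20.1 FPKM in shJARID2, against 5.37 and 6.60 FPKM in shSCR, with exons of other genes over 28.8% of its own. DCK was at 34.3 and 31.3 FPKM in shJARID2, against 13.1 and 11.8 FPKM in shSCR.

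The 5 largest falls of that list were those of CHTF8, of an alternative clamp loader (-1.31, GC-corrected -0.96), POLD2 (-1.04, GC-corrected -0.49), the helicase gene RECQL4 (-0.90), CHTF18 (-0.87) and the maintenance methyltransferase gene DNMT1 (-0.77, GC-corrected -0.53). RECQL4 and CHTF18 lost their calls after correction (-0.064 and 0.026). Other genes' exons overlap 12.9% of the exon bases of CHTF8, and CHTF8 and POLD2 each have 1 annotated pseudogene copy. POLD2 was at 20.4 and 23.0 FPKM in shJARID2, against 44.3 and 46.9 FPKM in shSCR. Read by complex, POLD1 and POLD2 fell and POLD3 rose as measured (0.41, GC-corrected 0.20), and POLE fell while POLE2 (0.70, GC-corrected 0.27) and POLE4 rose. CDC7 and DBF4, the kinase and activator of origin firing, rose in both fits (0.51 and 0.60, GC-corrected 0.22 and 0.25), and the second activator DBF4B was lower as measured only (-0.57, GC-corrected -0.30). Of the histone chaperones, ASF1A rose, and ASF1B turned from -0.39 to 0.24 with the correction, called both times.

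**Figure D4:**
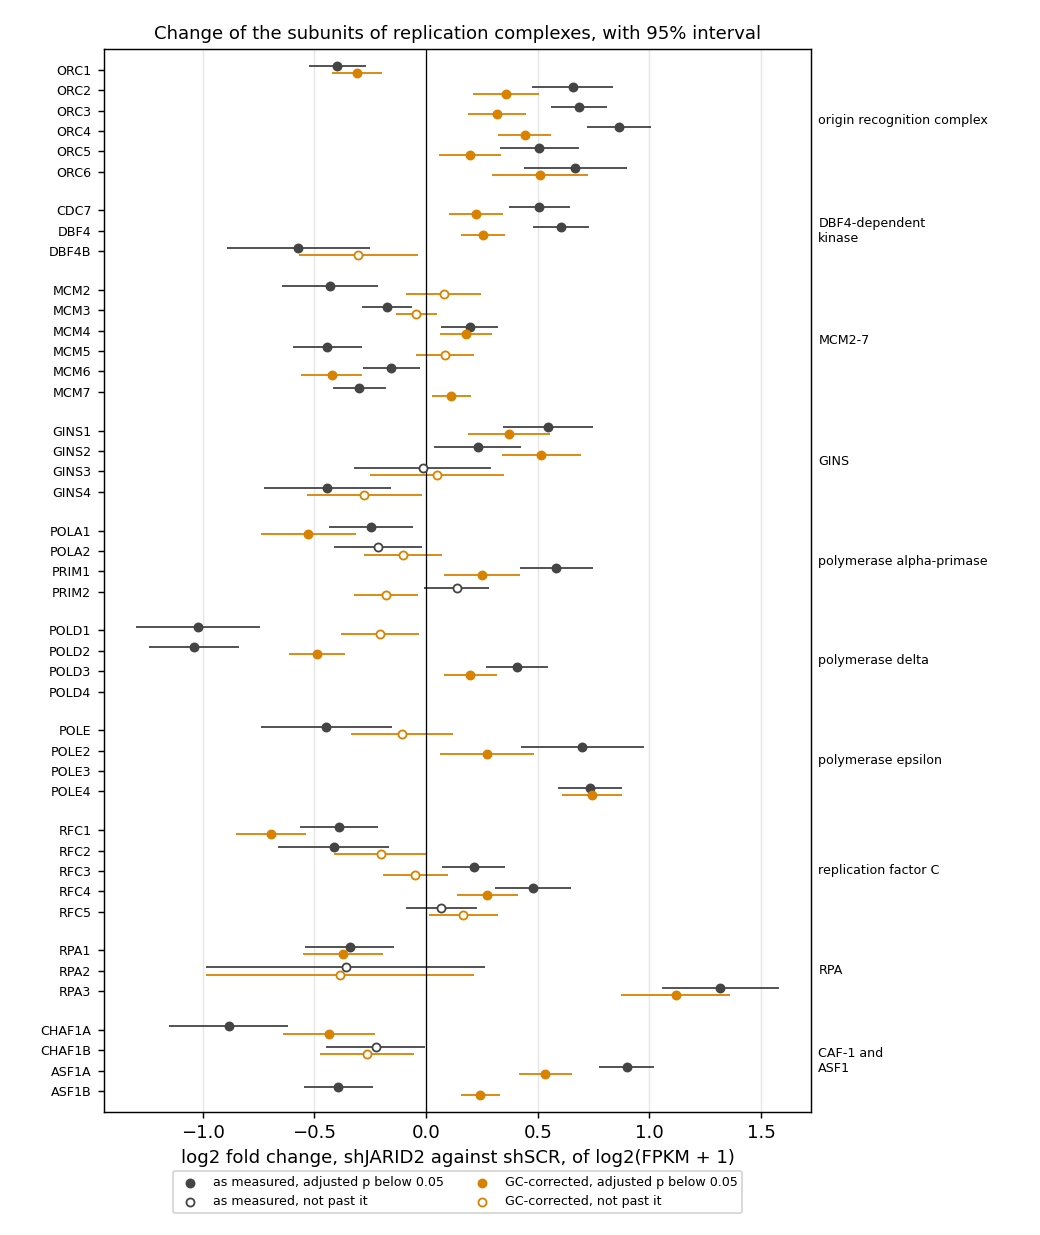
Log2 fold change with 95% interval of the subunits of 10 replication complexes, as measured (dark) and after GC correction (orange), with filled points past an adjusted p of 0.05. ORC1 lies below 0 at -0.40 with ORC2 to ORC6 above 0, and RPA1 and RPA3 lie on opposite sides of 0. POLD4 and POLE3, under the filter, have no point.

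The E2F word in the promoter stood in 5 of the 15 risen genes with a window (33.3%), in 12 of the 19 fallen (63.2%) and in 3 of the 7 not called (42.9%). Restricted to genes called in both fits, it stood in 3 of 12 higher genes (25%), GINS1, GINS2 and PCNA, and in 5 of 10 lower genes (50%), E2F3, CDT1, MCM6, POLA1 and TYMS. These shares have no test, and all lie above the 5.84% of windows of genes tested. RB1 counts as a higher gene without the word, but its window lies far inside the gene. Of the genes without a window, CCNE2, CDK2, MCM4 and RPA3 rose and MCM5 and GINS4 fell. CCAAT stood in 7 of the 15 risen genes (46.7%) and 11 of the 19 fallen (57.9%).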

How the data were processed

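RNA was measured in 4 libraries, 2 shJARID2 and 2 shSCR, grouped by the labels. The authors deposited FPKM, per the file headers, in 1 table per library. Per the submitters' processing notes, the tools were Trimmomatic, HISAT2, SAMtools and featureCounts. Not given in the sources used here are their versions, the genome build, the annotation, the library type, strand use and the handling of multiply matching reads. Of 85553 entries, 25133 have a gene symbol. FPKM are not counts, so depth was estimated from the spacing of low values, using exon lengths of GENCODE 29, which 24262 entries matched. In each library 95.7% to 96.3% of the values up to 20 reads were whole to within 0.05. Depth and these reads are therefore estimates.

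Genes with a mean of at least 1 FPKM (12455) were tested on log2(FPKM + 1). The tool was limma 3.58.1 (R 4.3.3), fitted on group alone with a mean-variance trend in its prior. P-values were adjusted over all genes tested by Benjamini-Hochberg, with a call below 0.05. Fold changes are of shJARID2 against shSCR on that scale, on which changes of low genes come out too small. Intervals are limma's 95% intervals. The GC-corrected fit subtracted, in each library, a loess smooth (span 0.3, degree 2) of deviations from the gene mean on transcript GC content, for 12065 genes. The 708 entries that share a symbol got no annotation. Exon overlap counts bases covered by exons of other genes on either strand. The procedure was tested on simulated data, but no result of that test is given here.

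The genes, the longer list, the tests and the promoter words were chosen with earlier results of these data known. All 49 genes are named, with values per library for the E2F and pocket protein genes and for others the text turns on. Of the longer list, the 5 largest rises and 5 largest falls among called genes are named, and subunits of the complexes were added after their values were seen. Alternatives were other scalings, pseudocounts and filters, no trend, limma-voom on the recovered reads, the replicate number as a block, each library left out, GC corrections, and the 33 of the genes with under 10% exon overlap and no pseudogene copy.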

Additional observations from a re-analysis of the deposited data

How the results depend on the processing

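With 2 libraries a group, the calls of small changes depended on single libraries and settings. As measured, 21 of the 49 genes fell, and leaving out 1 library gave 10 to 20. That count was 11 with no filter on low values, 12 with GC correction, 13 with GC correction and a replicate block, and 12 with GC and length correction. The 19 rises became 12 over the 33 genes with under 10% exon overlap and no pseudogene copy, where fewer genes were counted. Over all genes, leaving out 1 library gave 2168 to 3068 higher and 2462 to 3763 lower. GC correction gave 2591 lower, and 2321 with the block. No filter on low values gave 3372 lower among 25133 genes, against 3941 among 12455 as measured. The longer list had 18 higher and 11 lower with GC correction and block. The median change of the 49 genes was -0.084 with upper-quartile scaling, -0.043 with GC correction with or without the block, -0.061 with GC and length correction, and -0.18 over the 33 genes.

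With GC correction, with or without the block, 9 genes had the opposite sign. RBL1 was at -0.0042, CCNE2 at -0.012, CDC6 at -0.15, MCM2 at 0.079, MCM5 at 0.086, MCM7 at 0.11, GINS3 at 0.050, RFC3 at -0.047 and RRM1 at -0.057. With GC and length correction they were at -0.0077, -0.017, -0.16, 0.086, 0.095, 0.11, 0.057, -0.075 and -0.067 in the same order. With the block, MCM7 and CDC6 were not called. GINS3, not called in any of these, was at 0.0057 with median-ratio scaling, 0.031 with upper-quartile scaling, 0.00050 with equal sums and 0.0032 with limma-voom. Leaving out 1 library, it ran from -0.12 to 0.092, CDC6 from -0.0055 to 0.068 and CDC45 from -0.056 to 0.12. The cause of these differences was not tested.

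The replicate numbers are given by the labels without a shared culture or day. Differences between replicates correlated by r = 0.029 between the groups over all genes tested. These differences ran with GC content in both groups, by rho 0.30 in shJARID2 and 0.29 in shSCR. Whether libraries with the same number were handled together was not tested. With a replicate block and no other change, 18 genes rose and 19 fell.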
